A study of Homo sapiens with 4 samples.

Results

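The BCL2 family genes followed here are 10 genes that decide whether the outer membrane of the mitochondrion stays closed or is opened in the course of apoptosis. They were BCL2, BCL2L1, MCL1, BAX, BAK1, PMAIP1, BCL2L11, BID, BMF and HRK. A probe set, the group of short oligonucleotides that reads one transcript region on the array, was taken where its annotation held exactly 1 gene symbol and that symbol was on this list. This gave 35 of the 41091 probe sets with 1 symbol, among 54675 probe sets in all, and 10 of 19775 genes. No probe set named one of the 10 genes beside another symbol.

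RNA came from HepG2, a human liver cancer line that keeps many hepatocyte features. The treated cells received 200 ng/ml APRIL, a soluble cytokine of the TNF family that is known for keeping B cells and plasma cells alive, for 2 h, 6 h or 12 h, and the 0 h cells were untreated. All cells had been kept without serum beforehand, for 24 h by the series' design text but only overnight by the protocols in the labels. There was 1 array for each time and no untreated array at 2, 6 or 12 h, so differences between arrays carry neither a replicate error nor a test, and an effect of time alone cannot be told apart from the treatment.

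In mammalian cells survival proteins such as BCL2, BCL-XL (from BCL2L1) and MCL1 hold the effectors BAX and BAK in check. BH3-only proteins, which share with the rest of the family only a short helix called BH3, bind the survival proteins or act on the effectors directly, and free BAX and BAK assemble into pores that let cytochrome c out of the mitochondrion. NOXA, the product of PMAIP1, binds mainly MCL1, while BIM, the product of BCL2L11, binds all the main survival proteins. In hepatocytes BID links death receptors at the cell surface to the mitochondrial pathway. Much of the family's control lies in protein stability, cleavage and binding, which RNA does not show.

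The clearest difference among the 10 genes was PMAIP1, whose transcript was 2.18-fold higher at 12 h than at 0 h, after lower values at 2 h and 6 h. It was the only one of the 10 at or past 2-fold in any comparison with 0 h. The survival genes BCL2L1 and MCL1 and the BH3-only genes BCL2L11 and BMF had lower medians on the 6 h array than on the 0 h array. These log2 ratios lay within the 5th to the 95th percentile of all genes at 6 h (-0.36 to 0.39). Probe sets of MCL1 and of BCL2L11 disagreed in direction there, and BMF rests on 1 probe set. In the deposited values, BID and BMF were higher at 12 h by less than 1.5-fold. The ratios of BCL2, BAK1, BAX and HRK against 0 h in these values stayed within 0.27 of 0 on the log2 scale. In RNA from whole cultures, less transcript per cell and fewer cells that hold it cannot be told apart.

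RefSeq promoter sequences (GRCh38.p14) were found for 9 of the 10 genes, 15 promoters in all, and the 250 bases upstream of each start site were searched for 4 short motifs on both strands. The upstream sequence of PMAIP1 is shown because its transcript had the largest difference, and that of BCL2L11 because its probe sets differed most from each other at 12 h over 0 h. Both run 5′ to 3′ on the gene's strand, the plus strand in both cases. PMAIP1 lies at chr18:59899746-59899995 and BCL2L11 at chr2:111120664-111120913. Capitals mark a CRE core, part of the site of the ATF and CREB factors (TGACGT, on the antisense strand), in PMAIP1 and a FOXO motif (TGTTTAC, also on the antisense strand) in BCL2L11.

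PMAIP1: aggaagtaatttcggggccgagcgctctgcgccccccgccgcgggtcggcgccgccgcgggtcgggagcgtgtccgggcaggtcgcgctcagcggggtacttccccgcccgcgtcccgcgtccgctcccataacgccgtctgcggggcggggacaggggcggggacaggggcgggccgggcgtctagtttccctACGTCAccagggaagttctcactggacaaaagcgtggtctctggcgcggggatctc

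BCL2L11: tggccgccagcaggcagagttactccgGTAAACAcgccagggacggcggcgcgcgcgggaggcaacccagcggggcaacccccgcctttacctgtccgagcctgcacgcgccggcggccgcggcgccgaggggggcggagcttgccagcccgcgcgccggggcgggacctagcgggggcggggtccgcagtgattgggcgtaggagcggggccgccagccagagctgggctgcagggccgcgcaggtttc

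The CRE core of PMAIP1 covers bases 56 to 51 upstream of the start site. Of the 35116 promoters in the table, 7.10% hold this motif in the same window, and among the 15 promoters of the 10 genes it was found in 1. The FOXO motif of BCL2L11 covers bases 223 to 217 upstream, and 2.98% of all promoters hold it. The E-box CACGTG, the site of MYC and related factors, occurred 4 times upstream of BAX and once in each of 2 overlapping promoters of BID, against 6.34% of all promoters with at least 1 copy. The EGR motif GCGTGGGCG, which 0.720% of all promoters hold, was not found in these windows of the 9 genes. None of these motifs overlapped another. The motifs were chosen after the promoters had been read, so these matches cannot be weighed against the shares of all promoters. A match describes the letters and does not show that a factor binds there.

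The values below are the deposited log2 values, each relative to the median of its probe set over the 4 arrays. They show how a probe set differs between arrays and hold no expression level, so the 10 genes cannot be ranked by abundance. A log2 ratio is the difference between the values of 2 arrays, and a gene's ratio is the median over its probe sets. The SD given beside a ratio is the spread between probe sets of 1 gene and covers measurement within these arrays only. As a yardstick, the robust SD over all genes of the log2 ratio against 0 h was 0.16 with the 2 h array, 0.20 with the 6 h array and 0.24 with the 12 h array.

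Over all genes, the median log2 ratio against 0 h was 0.02, 0.05 and 0.01 on the 2, 6 and 12 h arrays. Bacterial RNAs that are mixed in before hybridization are read by 18 probe sets, whose median was at 0.01, 0.06 and -0.35, with all 18 lower on the 12 h array. Directions at 12 h are therefore relative to the array's median gene, and every 12 h ratio is about 0.35 higher relative to these bacterial RNAs. With centring on them, BID (0.78) and BMF (0.73) were past 1.5-fold higher at 12 h over 0 h, as PMAIP1 was. This centring raises every gene alike. The share of all genes then past 1.5-fold was not taken, so this is not a result about these genes in particular. MCL1 was then at 0.55, BAK1 at 0.52 and BCL2L1 at 0.46. Because levels are not held, the hepatocyte label could be checked only for stability: the median log2 ratio of the 8 hepatocyte markers was 0.02 at 12 h, with APOB at -1.08 as the only one past 2-fold. The 2 probe sets of APOB disagreed there, at -2.08 and -0.09 (SD 1.40). The 12 readable markers of immune cells, fibroblasts and endothelium ranged from -0.30 to 0.89 at 12 h, with PDGFRB highest, and none was past 2-fold against 0 h at any time.

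**Figure D1:**
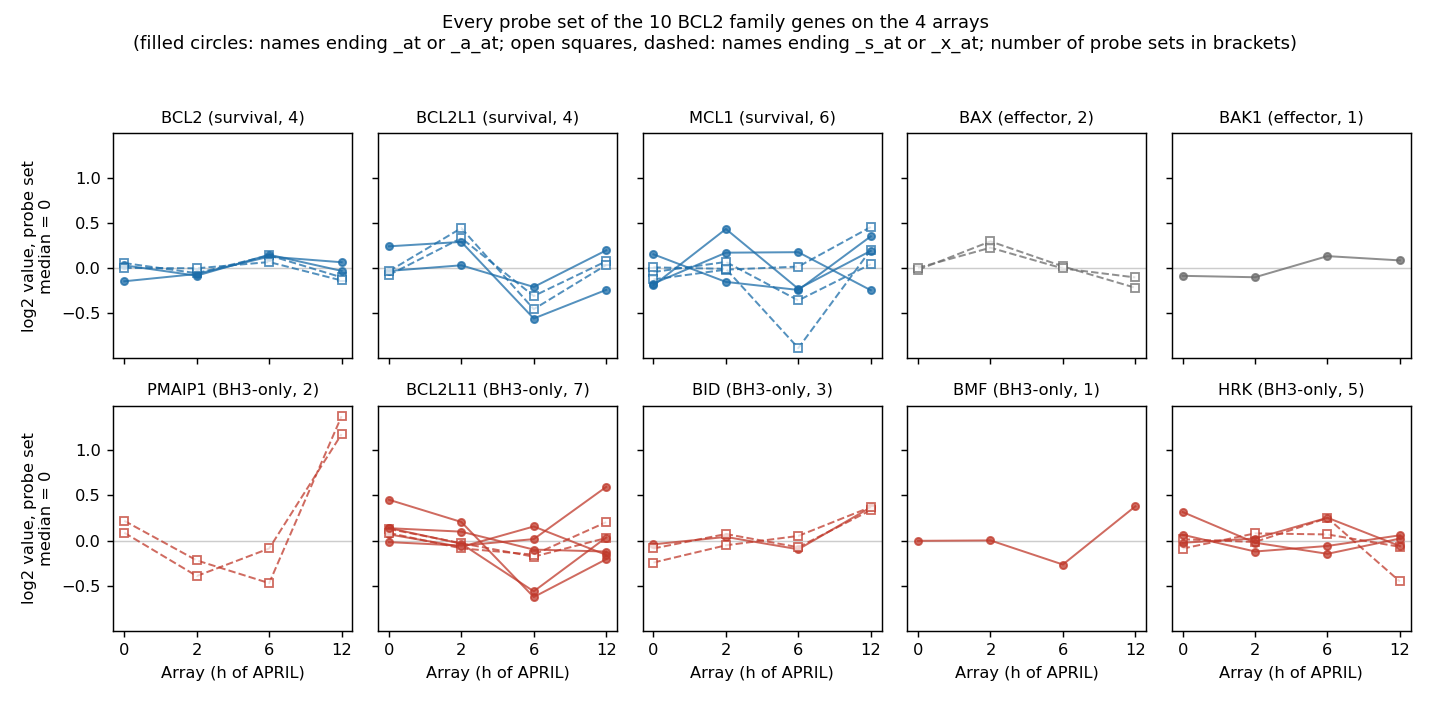
Log2 value of every probe set of the 10 genes (y axis, relative to the probe set's median over the 4 arrays) on the 0, 2, 6 and 12 h arrays (x axis, evenly spaced), 1 panel per gene with its role and number of probe sets. Both PMAIP1 probe sets reach above 1.1 at 12 h, all 4 BCL2L1 probe sets are lowest at 6 h, and the 7 BCL2L11 probe sets run in different directions.

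Among the BH3-only genes, PMAIP1 was read by 2 probe sets. Probe set 204285_s_at had log2 values of 0.22, -0.22, -0.47 and 1.38 at 0, 2, 6 and 12 h. Probe set 204286_s_at had 0.09, -0.39, -0.09 and 1.18. In both, the 12 h array was highest by a wide margin and the 0 h array second, while the lowest array was 6 h in the first and 2 h in the second.

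The log2 ratio of PMAIP1 at 12 h over 0 h was 1.12 (SD 0.05 over 2 probe sets), with 1.16 and 1.09 in the single probe sets. Of all probe sets with 1 symbol, 0.94% were at least as high as the first and 1.19% at least as high as the second. At 2 h the ratio was -0.46 (SD 0.03), and at 6 h it was -0.43 (SD 0.36), with -0.69 and -0.17 in the probe sets. Both probe sets were thus lower on the 2 h and 6 h arrays than on the 0 h array. The 12 h array was higher than the 6 h array by 1.55 (SD 0.41), which is 2.94-fold. Both probe sets have names ending in _s_at, which can match several transcripts, so without such probe sets PMAIP1 has no value here. Its 12 h ratio was 1.48 when the arrays were centred on the bacterial RNAs.

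At 12 h over 0 h, 1 of the 10 genes was past 2-fold higher and none lower, where 0.946% of all genes were past 2-fold higher and 0.986% lower. At 2 h and at 6 h none of the 10 was past 2-fold in either direction. At 2 h, 0.0354% of all genes were past it upward and 0.0101% downward, and at 6 h these shares were 0.101% and 0.283%. At a threshold of 1.5-fold (a log2 ratio of 0.585) the counts among the 10 were the same at each of the 3 times. Of all genes, 0.308% were past 1.5-fold upward and 0.344% downward at 2 h, 1.15% and 1.64% at 6 h, and 4.46% and 3.70% at 12 h. The median of the 10 log2 ratios was -0.01 at 2 h, -0.08 at 6 h and 0.14 at 12 h.

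BID encodes the protein that caspase-8 cleaves to carry the death receptor signal to mitochondria. Its 3 probe sets were all highest at 12 h. Probe set 204493_at had log2 values of -0.04, 0.04, -0.10 and 0.37 at 0, 2, 6 and 12 h. Probe set 211725_s_at had -0.09, 0.07, -0.07 and 0.34, and 227143_s_at had -0.24, -0.05, 0.05 and 0.37. The ratio at 12 h over 0 h was 0.42 (SD 0.11 over 3 probe sets), with the probe sets between 0.41 and 0.61, and the ratios at 2 h and 6 h were 0.16 and 0.01. The 3 probe sets agreed in direction at 2 h and 12 h but not at 6 h.

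BMF encodes a BH3-only protein that is held at the cytoskeleton and released on detachment and other stresses. It rests on 1 probe set, with log2 values of 0.00, 0.00, -0.26 and 0.38 at 0, 2, 6 and 12 h. The 0 h and 2 h arrays were level, the 6 h array was lowest and the 12 h array highest. Its ratio was -0.26 at 6 h and 0.38 at 12 h against 0 h, and 0.64 at 12 h over 6 h, which is 1.56-fold. PMAIP1 and BMF were the 2 members past 1.5-fold higher between 6 h and 12 h, where 3.51% of all genes were. PMAIP1 was also past 2-fold there, as were 0.799% of all genes.

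BCL2L11 had the most probe sets of the 10 genes, 7, and they did not describe 1 course. Probe set 225606_at was highest at 12 h, with log2 values of -0.02, -0.06, 0.02 and 0.59 at 0, 2, 6 and 12 h. Probe set 1558143_a_at was highest at 0 h and lowest at 6 h, with 0.45, 0.21, -0.62 and -0.21. Probe set 1555372_at had 0.14, -0.03, -0.56 and 0.03 and was also lowest at 6 h. The first of these differed from the others mainly in being higher at 12 h, and the other two in being low at 6 h.

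The other 4 probe sets of BCL2L11 had narrower courses. Probe set 208536_s_at had log2 values of 0.09, -0.09, -0.15 and 0.20, and 1553096_s_at had 0.13, -0.03, -0.18 and 0.03. Probe set 222343_at had 0.14, 0.10, -0.10 and -0.12, and 1553088_a_at had 0.07, -0.07, 0.16 and -0.16. At 12 h over 0 h the 7 log2 ratios ran from -0.66 to 0.61, with 2 above 0 and 5 below (median -0.11, SD 0.39). At 6 h they ran from -1.08 to 0.09 (median -0.24, SD 0.41). At 2 h all 7 were below 0, with a median of -0.16 and an SD of 0.08. The gene's median at 12 h, -0.11, was 0.25 when the arrays were centred on the bacterial RNAs, so its direction at 12 h is not settled.

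HRK, the gene of a BH3-only protein known from dying neurons, had 5 probe sets that did not share a course. Its log2 ratios at 12 h over 0 h ran from -0.47 to 0.02 (median -0.04, SD 0.21, or a median of 0.32 with centring on the bacterial RNAs), and at 6 h over 0 h from -0.46 to 0.28 (median 0.16, SD 0.31). The 6 h median turned to -0.12 when probe sets with names ending in _s_at or _x_at were left out. The probe set with the widest range, 206863_x_at, had values of 0.02, -0.02, 0.25 and -0.45 at 0, 2, 6 and 12 h. It was high at 6 h and low at 12 h, while 206865_at was highest at 0 h, with values of 0.32, -0.02, -0.15 and 0.02.

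**Figure D2:**
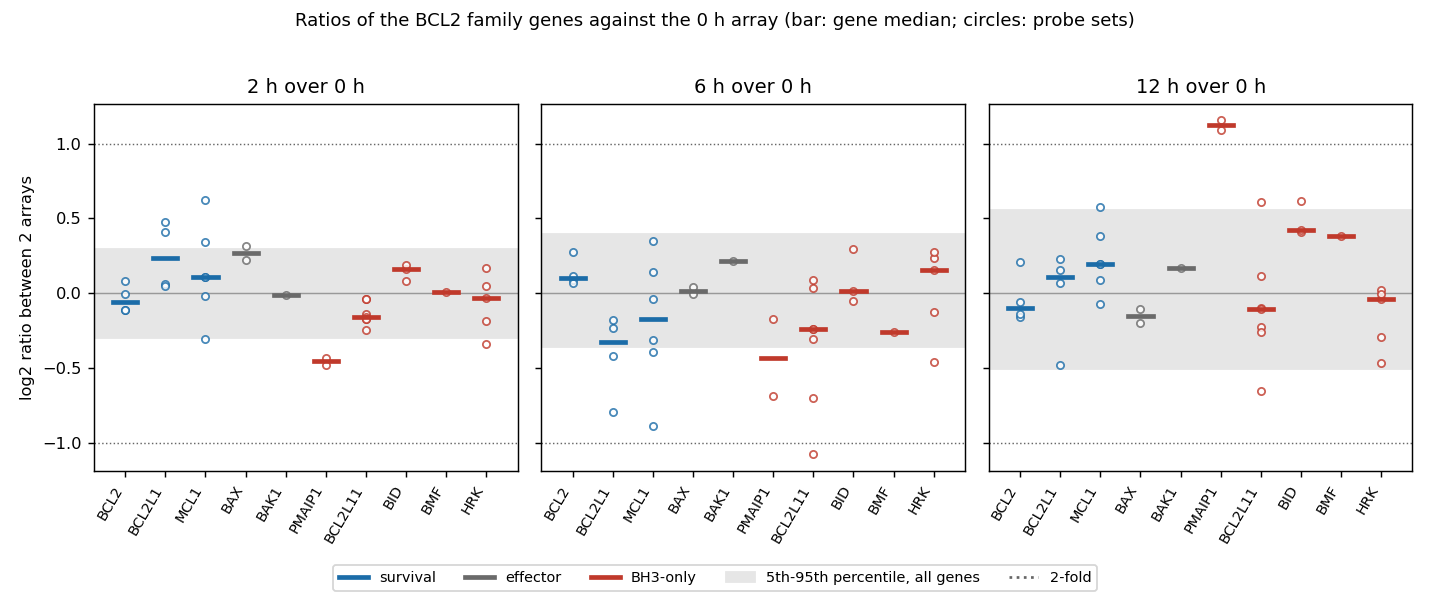
Log2 ratio of each of the 10 genes (y axis) at 2 h, 6 h and 12 h over 0 h (1 panel each), with bars for the gene's median and circles for its probe sets, coloured by role. The grey band spans the 5th to the 95th percentile of all genes and the dotted lines mark 2-fold. PMAIP1 lies below the band at 2 h and at 6 h and above it, at 1.12, at 12 h.

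Among the survival genes, BCL2L1 encodes BCL-XL, a survival protein on which hepatocytes depend. Its 4 probe sets were all lowest at 6 h. Probe set 215037_s_at had log2 values of -0.03, 0.44, -0.45 and 0.03 at 0, 2, 6 and 12 h, and 206665_s_at had -0.08, 0.33, -0.31 and 0.08. Both were highest at 2 h and returned at 12 h to near their 0 h value.

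The other 2 probe sets of BCL2L1 shared the low 6 h value and were only 0.05 and 0.06 higher at 2 h than at 0 h. Probe set 231228_at had log2 values of 0.24, 0.29, -0.56 and -0.24, so it was highest at 2 h and at 12 h was still below 0 h. Probe set 212312_at had -0.03, 0.03, -0.21 and 0.20 and was highest at 12 h. The gene's ratio against 0 h was 0.23 at 2 h (SD 0.22 over 4 probe sets), -0.33 at 6 h (SD 0.28) and 0.11 at 12 h (SD 0.32). The direction at 12 h turned to -0.13 when probe sets with names ending in _s_at or _x_at were left out.

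Between 2 h and 6 h, BCL2L1 had a log2 ratio of -0.74 (1.67-fold lower, SD 0.30), with all 4 probe sets below 0. It was the only one of the 10 genes past 1.5-fold lower in that step, where 2.07% of all genes were. Between 6 h and 12 h its ratio was 0.39 (SD 0.07), with all 4 probe sets above 0.

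MCL1 encodes a survival protein of short half-life whose transcript is also short-lived, and which NOXA targets for degradation. Its 6 probe sets fell into different courses, of which 4 were lowest at 6 h. Probe set 200798_x_at had log2 values of 0.01, -0.01, -0.88 and 0.20 at 0, 2, 6 and 12 h. Probe set 214056_at had -0.19, 0.43, -0.23 and 0.19, and 200796_s_at had -0.04, 0.07, -0.36 and 0.04. These 3 were lowest at 6 h, and the first differed between arrays by more than the rest of the MCL1 probe sets.

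Probe set 227175_at of MCL1, also lowest at 6 h, had log2 values of 0.15, -0.15, -0.24 and 0.35. Probe set 200797_s_at had -0.12, -0.02, 0.02 and 0.45, and 214057_at had -0.17, 0.17, 0.18 and -0.24. At 12 h over 0 h, 5 of the 6 probe sets were above 0, from -0.07 to 0.58, with a median of 0.20 (SD 0.23). At 6 h over 0 h the median was -0.18 with an SD of 0.44, so the probe sets disagreed by more than the size of the median. Between 6 h and 12 h the ratio was 0.43 (SD 0.49), with 5 of 6 above 0.

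BCL2, the founding survival gene of the family, showed small differences in its 4 probe sets. All 4 were highest at 6 h, with values from 0.07 to 0.15 on that array, but they differed on the other arrays. Probe set 207004_at was at 0.21 at 12 h over 0 h, and the others were between -0.16 and -0.06. No probe set spanned more than 0.27 over the 4 arrays, and at least 69.1% of all probe sets with 1 symbol had a range at least as wide as each of them. The gene's log2 ratio was -0.06 at 2 h, 0.10 at 6 h and -0.10 at 12 h (SD 0.17). The 12 h ratio was 0.25 with centring on the bacterial RNAs and 0.07 when probe sets with names ending in _s_at or _x_at were left out.

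Neither effector gene was past 1.5-fold against 0 h at any time, and BAX had the highest 2 h ratio of the 10 genes. BAX had 2 probe sets, with log2 values of -0.02, 0.30, 0.02 and -0.22 in 208478_s_at and 0.00, 0.23, 0.00 and -0.10 in 211833_s_at at 0, 2, 6 and 12 h. Both were highest at 2 h and lowest at 12 h. The ratio of BAX against 0 h was 0.27 at 2 h (SD 0.07), 0.02 at 6 h and -0.15 at 12 h (SD 0.06), and the last was 0.20 with centring on the bacterial RNAs. BAK1, which rests on 1 probe set, had values of -0.09, -0.10, 0.13 and 0.09, so the 0 h and 2 h arrays lay together and the 6 h and 12 h arrays slightly above them.

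Grouped by role, the median log2 ratio of the 5 BH3-only genes was -0.03 at 2 h, -0.24 at 6 h and 0.38 at 12 h. That of the 3 survival genes was 0.11, -0.18 and 0.11, and that of the 2 effectors 0.13, 0.12 and 0.01. Within the BH3-only group at 12 h, PMAIP1, BID and BMF were above 0 and BCL2L11 and HRK below it.

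Of the 35 probe sets, 16 had their lowest value at 6 h, as did 21.2% of all probe sets with 1 symbol. They belonged to BCL2L1 (4), MCL1 (4), BCL2L11 (4), BID, BMF, HRK and PMAIP1 (1 each), so they are not separate readings. At 6 h over 0 h, 5 of the 35 were past 1.5-fold lower and none past 1.5-fold higher, where 3.91% and 2.15% of all probe sets were. These 5 were 231228_at of BCL2L1 (-0.80), 200798_x_at of MCL1 (-0.89), 204285_s_at of PMAIP1 (-0.69), and 1555372_at (-0.70) and 1558143_a_at (-1.08) of BCL2L11. In each of these 4 genes at least 1 other probe set lay within 1.5-fold of 0 h at 6 h. At 12 h over 0 h, 4 of the 35 were past 1.5-fold higher, as were 6.54% of all probe sets: both of PMAIP1, 225606_at of BCL2L11 (0.61) and 227143_s_at of BID (0.61). The 1 past 1.5-fold lower was 1558143_a_at of BCL2L11 (-0.66), where 5.33% of all probe sets were.

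PMAIP1 was also set against each survival gene within the same pair of arrays, as the difference of their log2 ratios, which does not depend on how the arrays are centred. At 12 h over 0 h PMAIP1 exceeded MCL1 by 0.93 (1.90-fold), BCL2L1 by 1.01 (2.02-fold) and BCL2 by 1.22 (2.33-fold). This direction held in all 12 pairs of probe sets with MCL1, from 0.51 to 1.23, in all 8 with BCL2L1, from 0.86 to 1.64, and in all 8 with BCL2, from 0.88 to 1.31. These counts follow from the PMAIP1 probe sets, at 1.16 and 1.09, lying above every survival probe set, the highest of which was at 0.58. Pairs here and below reuse the same probe sets on the same arrays and are not replicates. At 2 h the differences were -0.57, -0.69 and -0.40, with none of the pairs above 0. At 6 h they were -0.26, -0.11 and -0.53, and pairs in both directions occurred for MCL1 (4 of 12 above 0) and BCL2L1 (5 of 8 above 0). The comparisons share the 0 h array, so its own chance values enter all 3 times.

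**Figure D3:**
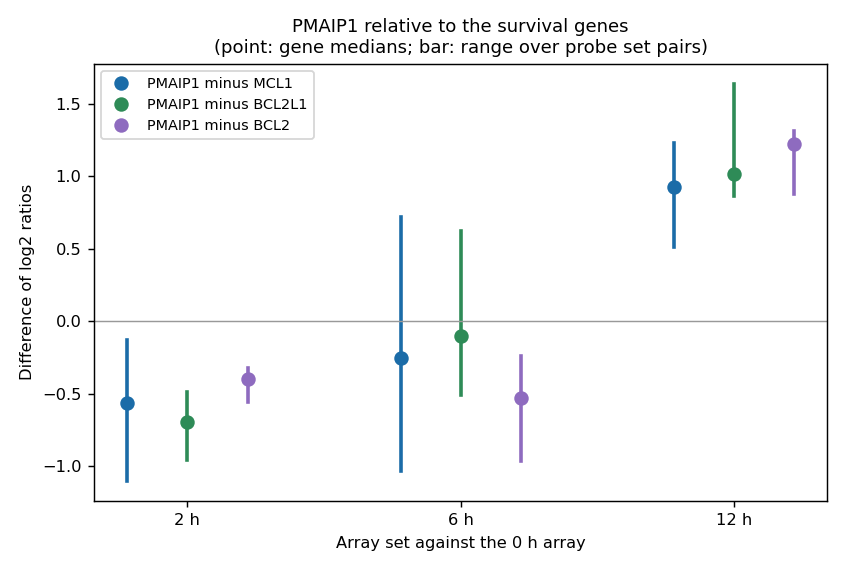
Log2 ratio of PMAIP1 minus that of MCL1, BCL2L1 or BCL2 (y axis) at 2, 6 and 12 h against the 0 h array (x axis). Points are differences of gene medians and bars the range over all pairs of probe sets. All 3 bars lie below 0 at 2 h, those of MCL1 and BCL2L1 cross 0 at 6 h, and all 3 lie above 0 at 12 h, with points from 0.93 to 1.22.

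The other BH3-only genes set against the survival genes, BID, BMF and BCL2L11, differed less from them. At 12 h over 0 h the log2 ratio of BID exceeded that of BCL2L1 by 0.31 and that of BCL2 by 0.52, in all 12 probe set pairs each, and that of MCL1 by 0.23, in 16 of 18 pairs. BMF exceeded BCL2L1 by 0.27 and BCL2 by 0.48, in all 4 pairs each, and MCL1 by 0.19, in 4 of 6 pairs. BCL2L11 lay the other way, at -0.30 relative to MCL1 (8 of 42 pairs above 0), -0.22 relative to BCL2L1 (10 of 28) and -0.01 relative to BCL2 (11 of 28). For HRK, the remaining BH3-only gene, no such differences were taken. Its log2 ratio at 12 h over 0 h, -0.04, lay below those of MCL1 (0.20) and BCL2L1 (0.11) and above that of BCL2 (-0.10).

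For the 2 members with the widest range, PMAIP1 and BCL2L1, the genes whose 3 log2 ratios against 0 h lay nearest were sought among 10522 genes with 2 or more probe sets. For PMAIP1 they were PAQR5 (a Euclidean distance of 0.28), FLRT3 (0.41), HAGLR (0.46), HOXD1 (0.50) and CSGALNACT2 (0.55). PAQR5 was at -0.30, -0.23 and 1.01 at 2, 6 and 12 h, and FLRT3 at -0.24, -0.77 and 1.06. Probe sets of PAQR5 (SD 1.28 over 2) and HOXD1 (SD 1.79 over 2) were far apart at 12 h. For BCL2L1 they were ANKRD11 (0.05), ZNF746 (0.05), NR3C1, the glucocorticoid receptor (0.06), BORCS5 (0.07) and CYLD, a deubiquitinase acting on NF-kB signalling (0.09). With 3 ratios that share the 0 h array, such likeness says little about these genes.

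Of the other BCL2 family genes, 15 of 16 on the list could be read, and none was past 2-fold against 0 h at any time. Their median log2 ratio was 0.07 at 2 h, 0.10 at 6 h and 0.13 at 12 h. The widest ranges were those of BIK, a BH3-only gene, and of BNIP3L and BNIP3, whose products mark mitochondria for autophagy. BIK, with 1 probe set, had log2 values of 0.08, -0.08, -0.53 and 0.35 at 0, 2, 6 and 12 h. It was lowest at 6 h and highest at 12 h, as BMF was. BNIP3 had a log2 ratio of -0.40 at 6 h and -0.71 at 12 h (SD 0.12 over 2 probe sets) against 0 h. BNIP3L was at -0.82 at 6 h and -0.59 at 12 h (SD 0.11 over 2). At 12 h, 2 of the 15 were past 1.5-fold higher and 2 lower, where 4.46% and 3.70% of all genes were. The higher ones, named after their values were seen, were BNIP2 at 0.66 and MOAP1, a partner of BAX, at 0.62, and the lower ones were BNIP3 and BNIP3L. On this and the other surrounding lists too, every 12 h ratio is about 0.35 higher relative to the bacterial RNAs. BNIP3 and BNIP3L would then not be past 1.5-fold lower.

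Downstream of cytochrome c release, 11 of 13 list entries could be read, with a median log2 ratio of 0.08, 0.08 and 0.09 at 2, 6 and 12 h. CASP6, an executioner caspase, was the only one past 2-fold in the deposited values. With centring on the bacterial RNAs it would not be past 2-fold. Its medians were 0.17, 0.02, -0.02 and -0.96 at 0, 2, 6 and 12 h, and its ratio at 12 h over 0 h was -1.13 (SD 0.09 over 2 probe sets). The other genes with wide ranges were VDAC3, a channel of the outer mitochondrial membrane, at -0.53 at 12 h, and APAF1, the scaffold on which caspase-9 is activated, at -0.37 at 2 h and 0.09 at 12 h. HTRA2, a mitochondrial protease that is released with cytochrome c, was the 1 gene past 1.5-fold higher at 12 h, at 0.66. It was named after its value was seen.

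Of the inhibitors of apoptosis and BAG proteins, 8 of 9 could be read, with a median log2 ratio of 0.04 at 12 h and none past 1.5-fold against 0 h. BIRC5, the gene of survivin, was at -0.53 (SD 0.30 over 4 probe sets), BIRC6 at 0.41 and BAG3, a partner of HSP70, at 0.19, with 0.41 at 6 h. The 9 genes that act on the turnover of MCL1 protein had a median of 0.14 at 12 h and ran from -0.01 to 0.29, with none past 1.5-fold at any time against 0 h. Their widest ranges were those of TRIM17, a ubiquitin ligase (0.36, -0.16 and 0.14 at 2, 6 and 12 h), FBXW7, the substrate receptor of another ligase (0.15, -0.14 and 0.23), and DESI1 (0.37, 0.23 and 0.22).

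Of 22 transcription factors and cofactors known to act on family genes, 20 could be read. Their median log2 ratio was 0.12 at 2 h, -0.04 at 6 h and 0.43 at 12 h, with 17 above 0 at 12 h, where 10217 of 19775 genes were. At 12 h, 4 were past 2-fold higher, EGR1, JUN, ATF3 and RELB, and none lower, where 0.946% of all genes were past 2-fold higher and 0.986% lower. EGR1 was at 2.91 (SD 0.59 over 3 probe sets), JUN at 1.42 (SD 0.66 over 4), ATF3 at 1.23 (SD 0.95 over 3) and RELB at 1.20 (1 probe set). TRIB3, a cofactor that restrains ATF4 and CHOP, was at 0.48, -0.57 and 0.92 at 2, 6 and 12 h. Against 0 h, none of the 20 was past 1.5-fold at 2 h or 6 h, and 8 were past 1.5-fold higher at 12 h, as were 4.46% of all genes. ATF3 and ATF4 bind CRE-like sites such as the one printed above for PMAIP1. They were at -0.04 and 0.12 at 2 h, 0.09 and -0.07 at 6 h and 1.23 and 0.37 at 12 h. The ATF3 probe sets ran from -0.04 to 1.83 at 12 h. CREB1, of the CREB factors, was at 0.03, 0.10 and 0.01 at 2, 6 and 12 h (7 probe sets). FOXO3 and FOXO1, whose family binds the motif printed above for BCL2L11, were at 0.39 and 0.12 at 12 h. At 2 h they were at 0.35 and 0.26, and at 6 h at -0.14 and -0.15. Whether any of them acts on these promoters was not tested.

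**Figure D4:**
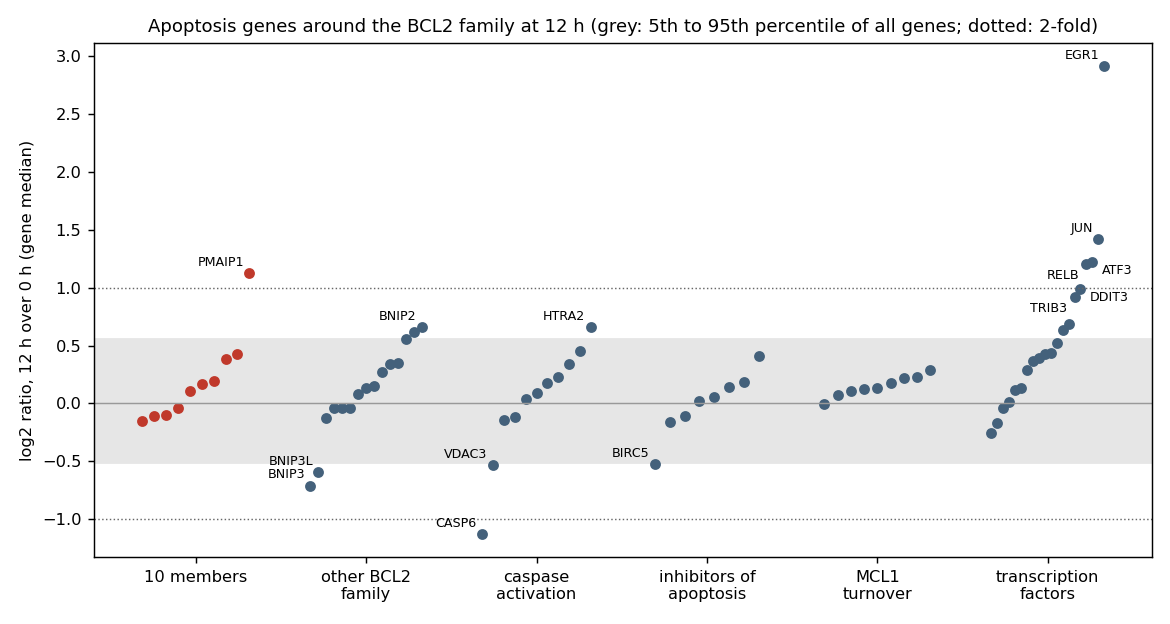
Log2 ratio at 12 h over 0 h (y axis, gene medians) of the 10 members and of the genes on 5 surrounding lists, each point 1 gene, sorted within its list. The grey band spans the 5th to the 95th percentile of all genes and the dotted lines mark 2-fold. PMAIP1 and 4 transcription factors lie above the upper dotted line and CASP6, at -1.13, below the lower one. The ratios are not centred on the bacterial RNAs.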

How the data were processed

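The deposited table holds log2 values for 54675 probe sets of the Affymetrix U133 Plus 2.0 array, which the authors made with RMA (version not given in the sources used here), per the submitters' processing notes. Each probe set is centred: its 4 values have a median of 0 within 1e-06. The base and direction of the log are not stated: base 2 and higher meaning more transcript were assumed. GEO's platform annotation gave the symbols, which were brought up to date by gene ID with RefSeq (GRCh38.p14). Affymetrix control probe sets were left out of the genes.

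Log2 ratios between 2 arrays were taken per probe set, with the median per gene, in Python 3.11.15 with pandas 2.3.3. With 1 array per time no test was made. Precision is limited by there being only 4 arrays. Each member and probe set is reported. From the surrounding lists, genes past 2-fold against 0 h and the 3 widest in range are named. The members, lists and thresholds were chosen with earlier results of these data known, and the motifs after the promoters had been read. Ratios were tested on simulated data. Entries that could not be read are not analysed here.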

Additional observations from a re-analysis of the deposited data

How the results depend on the processing

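No paired analysis was possible because each time has 1 array. The arrays' small number and the lack of levels limit every value, and probe sets near background cannot be told from bright ones. Of 66 values of the counts and medians of the 10 genes under the alternatives, 55 stayed within 1.5 times the count or 0.16 of the median. The other 11 follow, and beyond what their construction shows the cause was not tested. Where each gene was read by its most variable probe set, 1 gene was past 2-fold at 6 h (BCL2L11, lower) and 2 at 12 h over 6 h (PMAIP1 and MCL1, higher). Without probe sets that can match several transcripts, 0 were past 2-fold at 12 h over 0 h and 0 at 12 h over 6 h, since PMAIP1 then has no value. At 3-fold the count was 0 in both of these comparisons. At 1.5-fold it was 1 at 6 h over 2 h and 2 at 12 h over 6 h. Centring on the bacterial RNAs gave 2 past 2-fold at 12 h over 6 h, and medians of 0.49 at 12 h over 0 h and 0.81 at 12 h over 6 h. Except at 1.5-fold, shares of all genes were not taken under these alternatives. The counts are therefore not results about the 10 genes in particular. Among values of single genes, 216 moved by less than 0.16, the robust SD of all genes at 2 h over 0 h, and 54 moved by more. The values past 2-fold were those of PMAIP1 at 12 h over 0 h and over 6 h. They kept their sign in each alternative in which PMAIP1 could be read, which adds no support. Both of its probe sets were past 2-fold higher in these comparisons, so the choice of probe set could not turn the sign. Smaller ratios at 12 h over 0 h did change sign in some alternatives, as given above for BCL2, BCL2L1, BCL2L11, BAX and HRK. The ratios of single genes between successive treated times were added to the alternatives after seeing the data.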
